A study of Mus musculus with 12 samples.

Results

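The semaphorins, plexins and neuropilins were taken as all genes whose symbol in the probe set annotation follows the Sema3 to Sema7 or the Plxna to Plxnd pattern, with Nrp1, Nrp2, Plxdc1 and Plxdc2 added. This gave 33 of the 19935 genes that the annotation names by a single symbol: 20 semaphorins, 9 plexins, 2 neuropilins and 2 plexin domain containing proteins. The rule uses symbols and no measured value, though it was set with earlier results of these data known. RNA from male mice aged 8 to 10 weeks was hybridised to 12 Affymetrix arrays, 3 for each of 4 groups. The groups were Villin-Claudin-2 transgenic mice (TG) given dextran sodium sulfate (DSS) at 4% w/v in the drinking water for 10 days, TG mice given plain water, wild-type (WT) littermates given the same DSS, and WT littermates given plain water. The transgene is named for villin, a brush border protein of gut epithelium, and for claudin-2, a tight junction protein that forms a pore for small cations. The labels name neither the strain nor the transgenic line, and do not say whether the arrays of a group came from separate animals, so every p-value reflects only how far these samples scatter, which may be technical scatter.

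Semaphorins are secreted or membrane-bound guidance proteins first known from growing axons. They signal through plexins, whose cytoplasmic domain acts on small GTPases and so on the actin cytoskeleton and on adhesion, and secreted class 3 semaphorins mostly need a neuropilin as the binding partner of the plexin. In the gut wall they are known from enteric nerves, blood vessels, immune cells and the epithelium itself, where they bear on branching of vessels, on migration of leukocytes and on epithelial movement. DSS injures the colonic epithelium and is a standard model of colitis.

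Each value below is the log2 signal of a gene on an array minus that gene's median across the 12 arrays, because the deposited values are centred in that way. A value of 0 is thus the median array, a difference of 1 is a doubling in signal, and levels cannot be compared between genes. Of the 33 genes, 31 had 1 probe set. The 2 probe sets of Sema6b differed by at most 0.00353 on any array and carry nearly the same measurement, while the 2 probe sets of Sema4d differed by up to 0.63, so the averaged Sema4d value is uncertain.

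The arrays labelled WT DSS differed widely among themselves. Replicates 1, 2 and 3 had 677, 3795 and 1035 of 28815 probe sets more than 1 away from the median array, against 285, 53 and 90 in TG DSS, 22, 73 and 91 in TG water and 68, 54 and 32 in WT water. Samples are labelled as colon epithelial cells, and on WT DSS replicate 2 the pan-epithelial markers, among them Epcam and Cdh1, were below -1 for 11 of 11 genes with a median of -2.01. On the same array 10 of 10 endothelial, 10 of 10 fibroblast, 7 of 8 macrophage and monocyte and 8 of 8 neutrophil markers were above 1, with medians of 2.98, 2.26, 2.24 and 4.46. WT DSS replicate 1 had a pan-epithelial median of -0.08, a fibroblast median of 1.08 and a neutrophil median of 2.31, and WT DSS replicate 3 had 0.00, -0.26 and 0.49 for the same lists. Markers of absorptive colonocytes had medians of -0.33, -2.54 and -1.06 on WT DSS replicates 1, 2 and 3, against 0.15, 0.15 and 0.12 in WT water, with 4 of 6 genes lower on all WT DSS arrays than on any WT water array. TG DSS replicate 1 stood above TG DSS replicates 2 and 3 for the fibroblast list (0.84, against -0.34 and -0.17) and for the neutrophil list (1.01, against -0.13 and -0.19). The part of cell makeup in the results below was not tested, and in bulk samples fewer cells of a type and less RNA per cell cannot be told apart. Cldn2, the gene of the transgene, was at -0.24, 0.27 and 0.15 in TG DSS, 0.36, 0.18 and -0.02 in TG water, -0.53, -2.28 and -0.12 in WT DSS and -0.04, 0.02 and 0.11 in WT water. Its TG minus WT difference on water was 0.14 ± 0.44 (SE; limma adjusted p = 1). Under DSS it was 1.04 ± 0.44 (SE; limma adjusted p = 0.292), with WT DSS replicate 2 the lowest array at -2.28. The TG and WT arrays overlapped on water and under DSS, so the array values do not separate the genotypes.

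**Figure D1:**
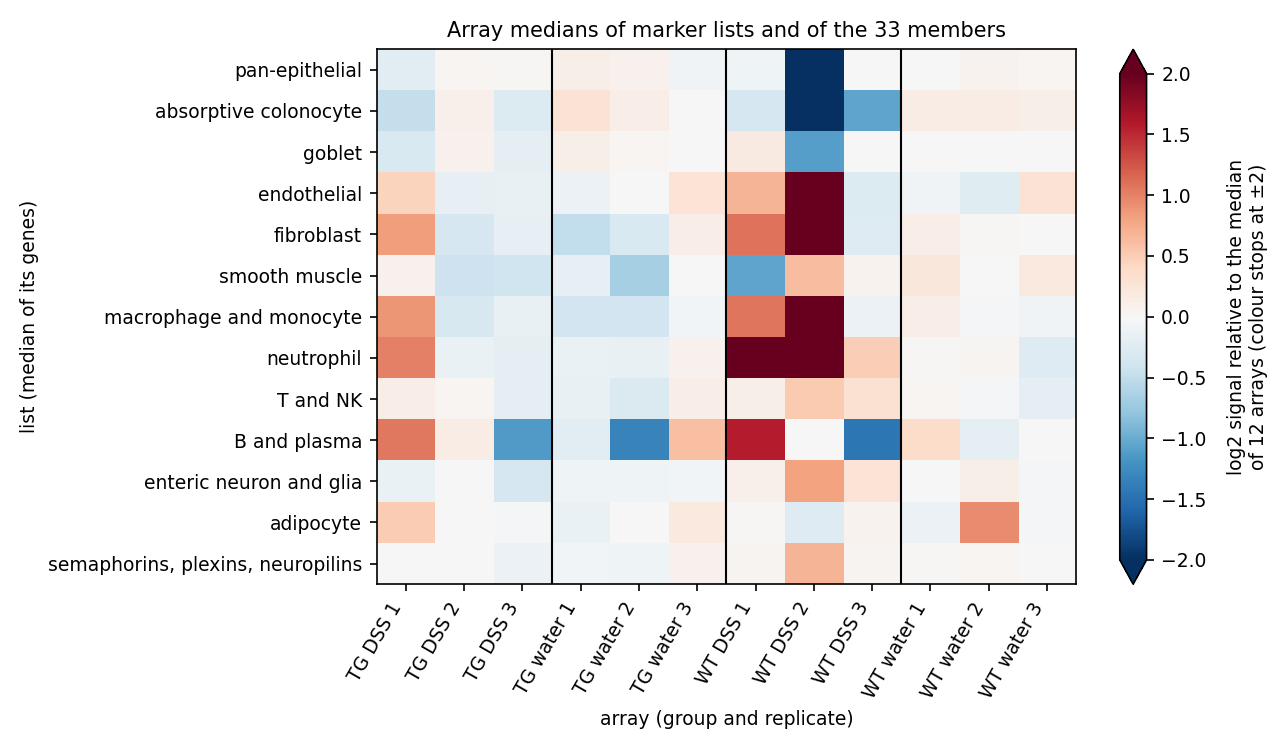
Median log2 signal, centred on each gene's median array (colour), for each marker list and for the 33 semaphorin, plexin and neuropilin genes (lines of the plot) on each array (x axis, group and replicate). WT DSS replicate 2 has the lowest pan-epithelial median, -2.01, and the highest median of the 33 genes, 0.68.

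In WT mice given DSS, the class 6 membrane semaphorin Sema6d was the only member that passed the test, and it rose 1.79-fold. Sema6d is a transmembrane ligand of plexin-A1, which the Plxna1 gene encodes. The class 5 semaphorin Sema5a had the next smallest p with a negative change, and Plxna1 the third smallest with a positive one. Larger positive changes of Sema7a, Plxnd1 and Nrp1 did not pass, and the values of these 3 genes spread from 0.15 to 3.27 over the WT DSS arrays.

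Sema6d had 0.72, 0.68 and 0.95 in WT DSS, against -0.04, 0.04 and -0.17 in WT water. All WT DSS arrays lay above all WT water arrays, and the array with the lowest pan-epithelial markers gave the lowest of the WT DSS values. The absorptive colonocyte list was below its WT water medians on the same 3 arrays, and its part in the Sema6d and Sema5a values was not tested. The change was 0.84 ± 0.11 (SE, n = 3 arrays a group) with a 95% confidence interval of 0.60 to 1.07 and a limma adjusted p of 0.0267. Without WT DSS replicate 2 the change was 0.89 ± 0.11 (limma adjusted p = 0.0269). The call was lost, at an almost unchanged size of 0.78 to 0.89, on leaving out any 1 of the 6 water arrays: the limma adjusted p was then 0.119, 0.0721 and 0.14 without WT water replicates 1, 2 and 3, and 0.0639, 0.0726 and 0.0648 without TG water replicates 1, 2 and 3. It was also lost with trend and robust variance, where the SE was 0.25 (limma adjusted p = 0.251), with a replicate block (0.108), with weights per group (0.151) and with the compared groups alone (0.367).

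Sema5a, a membrane semaphorin with thrombospondin repeats that can bind plexin-B3, had -0.81, -0.46 and -0.75 in WT DSS, against 0.18, -0.05 and 0.10 in WT water. All 3 WT DSS arrays were lower than all 3 WT water arrays, with WT DSS replicate 2 the nearest to water. The change of -0.75 ± 0.14 (SE) missed the threshold with a limma adjusted p of 0.067. It passed without WT DSS replicate 2 at -0.86 ± 0.14 (limma adjusted p = 0.0411), without WT DSS replicate 1 at -0.69 ± 0.16 (0.0442) and without TG DSS replicate 1 at -0.75 ± 0.13 (0.0471). Over all settings Sema5a passed in 4 of 21, with limma adjusted p from 0.0135 to 0.391. Calls over all genes rose as well, from 34 with all arrays to 92 without WT DSS replicate 2 and 919 without WT DSS replicate 1.

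The sequences before the annotated starts of Sema6d, which passed, of Sema5a, with the next smallest p, and of Sema7a, with the largest change, are shown for comparison. Each is the 250 bases upstream of a start in RefSeq on GRCm38.p6, 5′ to 3′ on the strand of the gene, and capitals mark the matches found. The first Sema6d window is chr2:124089719-124089968 (+), whose last 26 bases lie within the annotated gene, and the second is chr2:124653331-124653580 (+), which lies wholly within it. The Sema5a window is chr15:32244563-32244812 (+), just before the gene, and the Sema7a window is chr9:57939862-57940111 (+), which lies within the annotated gene.
Sema6d first start: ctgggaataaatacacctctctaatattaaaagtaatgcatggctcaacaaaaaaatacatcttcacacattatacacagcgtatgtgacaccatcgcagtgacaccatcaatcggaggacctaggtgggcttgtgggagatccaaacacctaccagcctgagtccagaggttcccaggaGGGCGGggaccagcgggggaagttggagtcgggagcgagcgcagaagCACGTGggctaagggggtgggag
Sema6d second start: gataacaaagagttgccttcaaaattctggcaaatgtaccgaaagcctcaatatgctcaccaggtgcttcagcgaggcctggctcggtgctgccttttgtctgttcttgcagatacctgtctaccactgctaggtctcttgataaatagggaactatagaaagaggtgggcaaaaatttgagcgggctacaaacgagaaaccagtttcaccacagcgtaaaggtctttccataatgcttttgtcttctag
Sema5a: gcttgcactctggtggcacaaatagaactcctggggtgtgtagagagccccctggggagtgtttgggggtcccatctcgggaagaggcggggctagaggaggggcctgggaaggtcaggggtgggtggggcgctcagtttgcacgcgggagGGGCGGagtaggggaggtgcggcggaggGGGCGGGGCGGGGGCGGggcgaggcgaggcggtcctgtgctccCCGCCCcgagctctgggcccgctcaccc
Sema7a: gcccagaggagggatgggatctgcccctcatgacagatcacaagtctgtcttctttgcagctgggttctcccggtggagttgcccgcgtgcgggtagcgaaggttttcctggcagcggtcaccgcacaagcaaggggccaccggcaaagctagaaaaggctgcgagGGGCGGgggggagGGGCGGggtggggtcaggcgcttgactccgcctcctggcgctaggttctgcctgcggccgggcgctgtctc

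Both strands were searched for 5 short motifs with overlapping matches counted: the GC box GGGCGG, the TATA box TATAAA, the AP-1 site TGAGTCA, the hypoxia response core ACGTG and the E-box CACGTG, which contains the hypoxia core on both strands. The first Sema6d window held 1 GC box, 1 E-box and the 2 hypoxia core matches that lie within this E-box, and the second held none of the motifs. Sema5a held 5 GC boxes and Sema7a 2, with no other match in either. Of all 32851 RefSeq windows of the same length, 32.7% held a GC box, 12.4% a TATA box, 4.46% an AP-1 site, 16.6% the hypoxia core and 6.02% an E-box. GC content was 52.4% and 45.2% in the Sema6d windows, 72% in Sema5a and 66.4% in Sema7a, with a median of 52.4% over all windows. These matches describe the letters alone.

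Over the whole gene set, 1 of 33 members passed in WT DSS against WT water, where 0.171% of all genes passed (34 of 19935; 9 or 0.0451% higher, 25 or 0.125% lower). At an unadjusted p under 0.05, 7 members were higher and 1 was lower, against 5.7% of all genes higher and 9.55% lower. The 3 WT DSS arrays lay above the 3 WT water arrays for 7 members and below them for 1, where 5.45% of all genes lay above and 10.7% below. The log2 change was above 0 for 22 of 33 members and for 40.6% of all genes, with medians of 0.19 and -0.04. Without WT DSS replicate 2, 19 of 33 were above 0 with a median of 0.04, 9 members changed sign, and 2 passed, Sema6d and Sema5a, where 92 genes or 0.461% of all passed and the median over all genes was -0.03. That array was the farthest from 0 of the WT DSS arrays for 27 of 33 members, and on it 12 members exceeded 1 and 3 were below -1, against 9.45% and 6.78% of all genes. The shares of all genes that were farthest from 0 on it, or changed sign without it, were not counted. Passing members also differed by array left out, and so did the count over all genes. Plxna1, Sema5a and Sema6d passed without replicate 1, where 919 genes or 4.61% of all passed, and Plxnc1, Plxnd1, Sema6d and Sema7a without replicate 3, where 575 or 2.88% did.

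**Figure D2:**
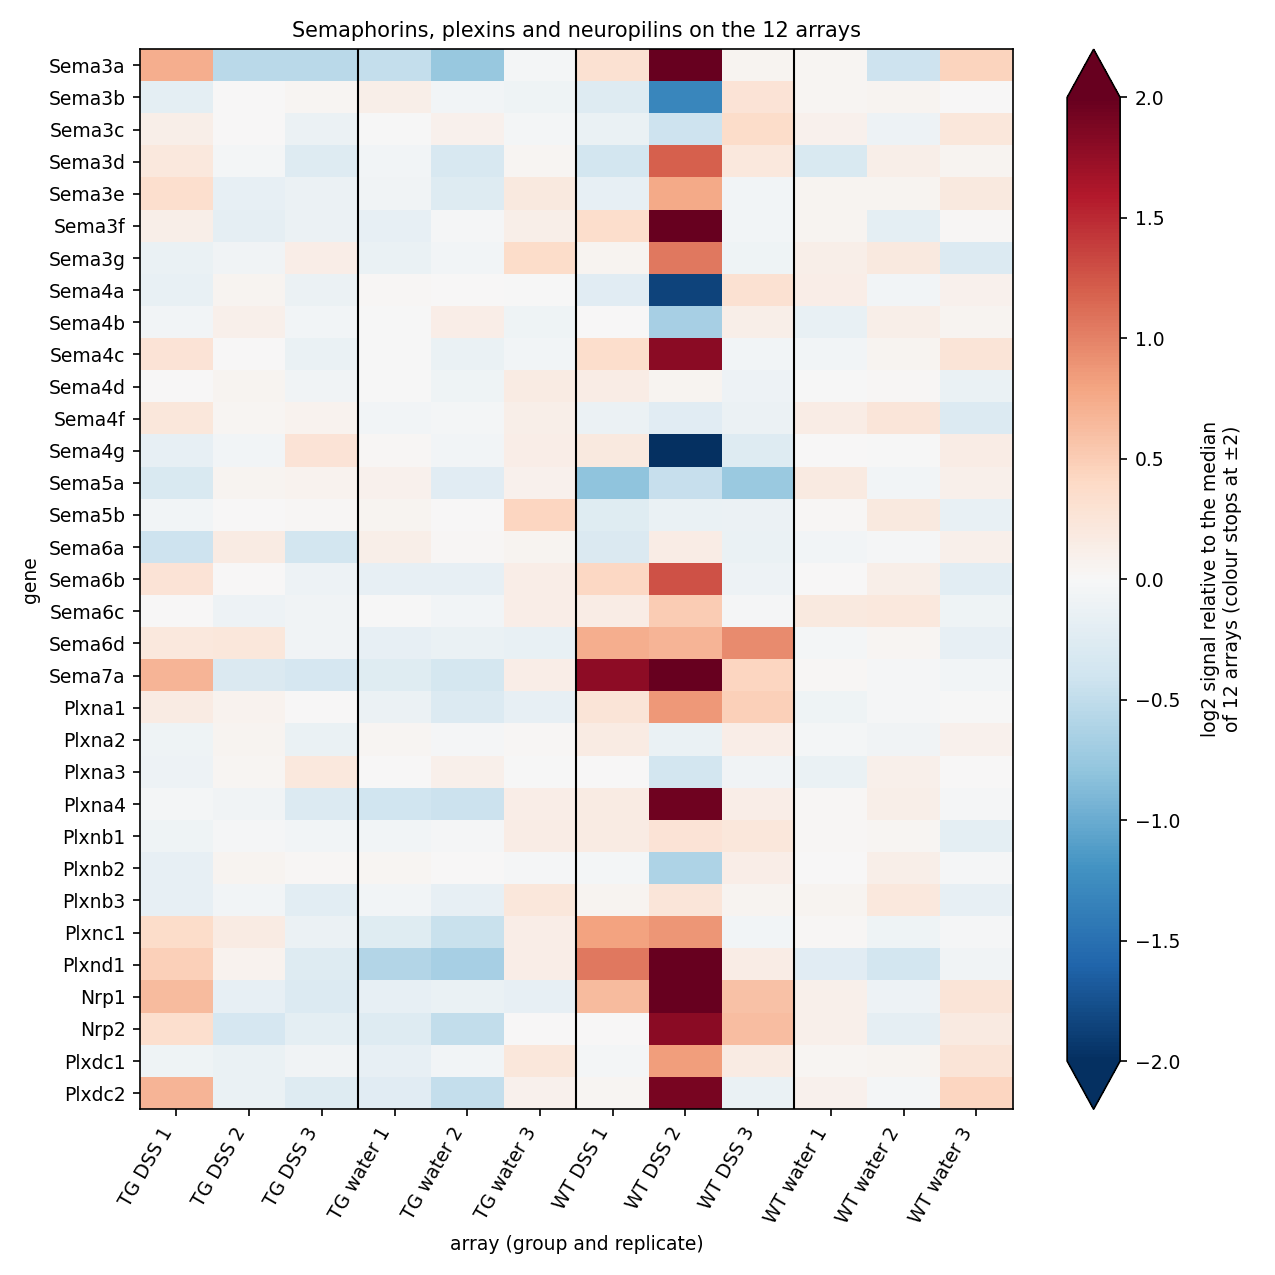
Log2 signal, centred on each gene's median array (colour), for each of the 33 genes (y axis) on each array (x axis, group and replicate). WT DSS replicate 2 holds 12 members above 1 and 3 below -1, while the 9 arrays of TG DSS, TG water and WT water hold none beyond 1 in either direction.

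None of the 7 secreted class 3 semaphorins passed in WT DSS against WT water, with limma adjusted p from 0.393 to 0.912. Sema3f, which acts through neuropilin-2, had 0.35, 2.39 and -0.05 in WT DSS, against 0.06, -0.19 and 0.02 in WT water. Sema3a, the classical axon repellent acting through neuropilin-1, had 0.30, 2.53 and 0.06 in WT DSS, against 0.04, -0.42 and 0.45 in WT water. Sema3b, another neuropilin ligand, had -0.26, -1.31 and 0.27 in WT DSS, against 0.04, 0.06 and 0.00 in WT water. For all 3 genes the DSS array apart from the others was replicate 2, and the groups overlapped. Their changes of 0.93 ± 0.49, 0.94 ± 0.60 and -0.47 ± 0.30 (SE) became 0.18 ± 0.15, 0.15 ± 0.39 and -0.03 ± 0.14 without it. The other 4 members of the class, Sema3c, Sema3d, Sema3e and Sema3g, had changes from -0.13 to 0.39.

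The 6 membrane-bound class 4 semaphorins also had no member that passed, and 4 of 6 had changes below 0. Sema4g had 0.19, -2.61 and -0.26 in WT DSS, against 0.01, -0.01 and 0.15 in WT water, the lowest value of any member on any array being that of replicate 2. Sema4c, a ligand of plexin-B2, had 0.35, 1.80 and -0.06 in WT DSS, against -0.06, 0.06 and 0.25 in WT water. Both overlapped with water, and their changes of -0.95 ± 0.56 and 0.61 ± 0.37 (SE) became -0.09 ± 0.16 and 0.06 ± 0.15 without replicate 2. Sema4a, known from immune cells, had -0.22, -1.85 and 0.30 in WT DSS, against 0.13, -0.06 and 0.09 in WT water. Sema4d, a lymphocyte semaphorin that binds plexin-B1, had a change of 0.07 ± 0.10 (SE) with the probe set disagreement given above.

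In classes 5 and 6, Sema6d and Sema5a were the extremes. Sema6b had 0.41, 1.28 and -0.10 in WT DSS, against 0.00, 0.12 and -0.21 in WT water, a change of 0.56 ± 0.28 (SE; limma adjusted p = 0.38) with groups that overlapped. Sema6a, a ligand of plexin-A2 and plexin-A4, had -0.29, 0.15 and -0.13 in WT DSS, against -0.06, -0.03 and 0.10 in WT water, a change of -0.09 ± 0.16 (SE). Sema5b had -0.24, -0.14 and -0.11 in WT DSS, against 0.03, 0.19 and -0.15 in WT water, a change of -0.18 ± 0.12 (SE). Both overlapped with water. The class 6 genes thus had changes from -0.09 to 0.84, with 1 of 4 passing.

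Sema7a, the semaphorin held on the membrane by a GPI anchor, binds plexin-C1 and integrin beta-1. It had 1.79, 3.27 and 0.43 in WT DSS, against 0.03, -0.03 and -0.06 in WT water. All 3 DSS arrays were above all water arrays. The order of the DSS arrays was shared by the neutrophil, fibroblast, macrophage and endothelial marker medians, each highest on replicate 2 and lowest on replicate 3. The other marker lists had other orders. How many of all genes share this order of 3 arrays was not counted, and its link to cell makeup was not tested. Medians of smooth muscle, of T and NK cells and of enteric neurons and glia were lowest on replicate 1, and that of B and plasma cells was highest there. The change was 1.85 ± 0.57 (SE), or 3.61-fold, with a limma adjusted p of 0.178. It was 1.13 ± 0.39 without replicate 2 (limma adjusted p = 0.228) and passed at 2.55 ± 0.42 without replicate 3 (0.0235).

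Among the class A plexins, Plxna1 had 0.25, 0.87 and 0.47 in WT DSS, against -0.09, -0.03 and -0.01 in WT water. The groups did not overlap, and the change of 0.57 ± 0.13 (SE) had a limma adjusted p of 0.104, or 0.40 ± 0.09 and 0.105 without replicate 2. It passed without replicate 1, at 0.71 ± 0.12 (limma adjusted p = 0.0119). Plxna4, a partner of neuropilins in the response to Sema3a, had 0.16, 1.95 and 0.13 in WT DSS, against 0.03, 0.12 and -0.03 in WT water. These groups did not overlap either, though replicates 1 and 3 exceeded the highest water array by a few hundredths. Its change was 0.71 ± 0.40 (SE; limma adjusted p = 0.436) and 0.11 ± 0.16 without replicate 2. Plxna3 had 0.01, -0.37 and -0.07 in WT DSS, against -0.14, 0.10 and 0.00 in WT water, with overlap and a change of -0.13 ± 0.12, and Plxna2 had a change of 0.06 ± 0.10 (SE).

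Of the class B plexins, Plxnb1, the receptor of Sema4d, had 0.16, 0.27 and 0.23 in WT DSS, against 0.03, 0.04 and -0.19 in WT water. The groups did not overlap, the DSS arrays were close to each other, and the change was 0.26 ± 0.09 (SE; limma adjusted p = 0.221), little altered at 0.23 ± 0.10 without replicate 2. Plxnb2, the receptor of Sema4c, had -0.04, -0.62 and 0.13 in WT DSS, against 0.00, 0.11 and -0.03 in WT water, with overlap and a change of -0.20 ± 0.16, and Plxnb3 had a change of 0.09 ± 0.13 (SE).

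Plxnc1, the plexin that binds Sema7a, had 0.81, 0.88 and -0.06 in WT DSS, against 0.03, -0.08 and -0.03 in WT water. Replicates 1 and 2 were above water and replicate 3 was among the water arrays. Its change was 0.57 ± 0.24 (SE; limma adjusted p = 0.307), and it passed at 0.87 ± 0.18 without replicate 3 (limma adjusted p = 0.0413). Plxnd1, the endothelial receptor of Sema3e, had 1.06, 2.84 and 0.15 in WT DSS, against -0.23, -0.37 and -0.07 in WT water. All 3 DSS arrays exceeded all water arrays, in the same order as Sema7a and as those 4 marker lists. For Plxnd1 too, a link of this order to cell makeup was not tested. The change was 1.57 ± 0.54 (SE; limma adjusted p = 0.222), 0.83 ± 0.31 without replicate 2 (0.284), and passed at 2.17 ± 0.46 without replicate 3 (0.042).

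Nrp1, the neuropilin shared by Sema3a and VEGF-A signalling, had 0.64, 2.76 and 0.59 in WT DSS, against 0.10, -0.10 and 0.26 in WT water. The groups did not overlap, and the change of 1.25 ± 0.49 (SE; limma adjusted p = 0.276) was 0.53 ± 0.23 without replicate 2 (0.354). Nrp2, the neuropilin of Sema3f and of lymphatic VEGF-C signalling, had 0.00, 1.81 and 0.62 in WT DSS, against 0.10, -0.18 and 0.18 in WT water. The groups overlapped, and the change was 0.78 ± 0.38 (SE; limma adjusted p = 0.363) and 0.28 ± 0.24 without replicate 2. The plexin domain containing proteins Plxdc1, known as a tumour endothelial marker, and Plxdc2 had changes of 0.19 ± 0.20 and 0.44 ± 0.47 (SE). Plxdc1 had -0.04, 0.83 and 0.16 in WT DSS, against 0.04, 0.06 and 0.26 in WT water, and Plxdc2 had 0.04, 1.90 and -0.14 in WT DSS, against 0.09, -0.04 and 0.43 in WT water. Both overlapped with water, and both changes turned negative without replicate 2.

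**Figure D3:**
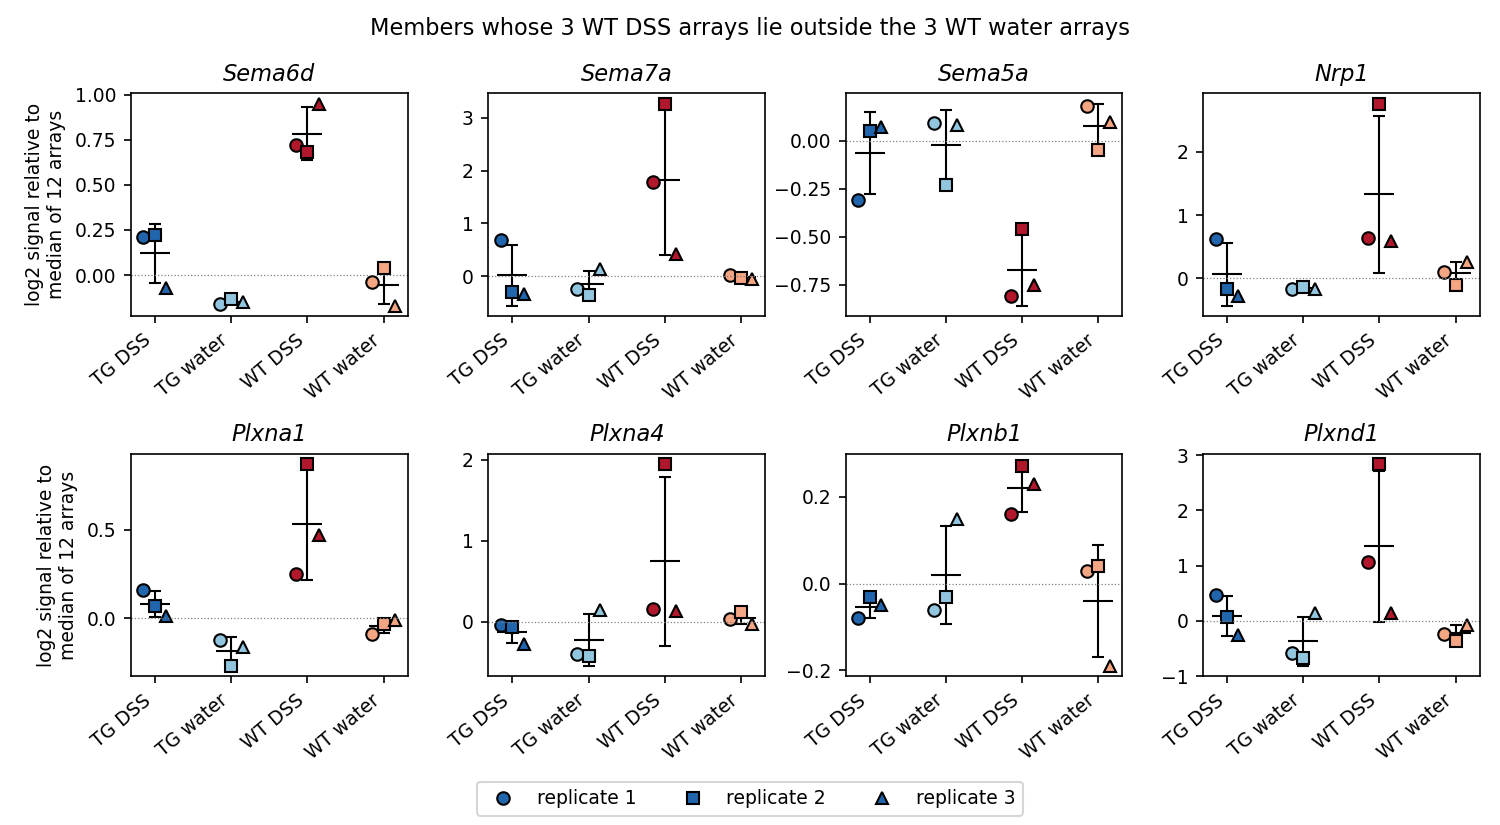
Log2 signal, centred on each gene's median array (y axis, scale set for each gene) by group for the 8 members whose WT DSS arrays do not overlap with the WT water arrays. Symbols are the 3 replicates, with the mean and SD as bars. Sema6d and Sema5a are tight in WT DSS, from 0.68 to 0.95 and from -0.81 to -0.46, whereas Sema7a, Plxnd1 and Nrp1 reach 3.27, 2.84 and 2.76 on replicate 2.

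In TG mice given DSS, no member passed against TG water, where 0% of all genes passed (0 of 19935 by limma, with 475 at an unadjusted p under 0.05). At that unadjusted level 1 member, Sema6d, was higher, against 1.21% of all genes higher and 1.17% lower. Sema6d had 0.21, 0.22 and -0.07 in TG DSS, against -0.16, -0.13 and -0.15 in TG water. The groups did not overlap, with TG DSS replicate 3 close to water, and the change was 0.27 ± 0.11 (SE; 95% confidence interval 0.03 to 0.50; limma adjusted p = 1). Plxna1 had 0.16, 0.07 and 0.01 in TG DSS, against -0.12, -0.27 and -0.16 in TG water, again without overlap, and a change of 0.26 ± 0.13 (SE; 95% confidence interval -0.04 to 0.56; limma adjusted p = 1). They were the 2 of 33 members without overlap in TG, with 2 above TG water and 0 below, where 6.76% of all genes lay above and 6.64% below. Both were also without overlap in WT, and the share of all genes without overlap in both genotypes was not counted.

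Plxnc1 had 0.37, 0.16 and -0.12 in TG DSS, against -0.24, -0.45 and 0.13 in TG water, a change of 0.32 ± 0.24 (SE). Sema6a had -0.41, 0.16 and -0.36 in TG DSS, against 0.12, 0.03 and 0.05 in TG water, a change of -0.27 ± 0.16 (SE). Sema5b had -0.05, 0.00 and 0.03 in TG DSS, against 0.05, 0.00 and 0.43 in TG water, a change of -0.17 ± 0.12 (SE). For all 3 genes the TG groups overlapped. The median change over the 33 members in TG was 0.00, with 16 above 0, and 46.2% of all genes were above 0.

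The TG DSS array with the highest fibroblast and neutrophil markers, replicate 1, was also the one with the largest member values. Sema3a had 0.72, -0.54 and -0.54 in TG DSS, against -0.48, -0.76 and -0.04 in TG water. Sema7a had 0.68, -0.29 and -0.34 in TG DSS, against -0.24, -0.35 and 0.13 in TG water. Nrp1 had 0.63, -0.16 and -0.28 in TG DSS, against -0.17, -0.14 and -0.16 in TG water. In each of the 3 genes replicate 1 was above every TG water array and replicates 2 and 3 were not. These genes are shown for their large values on replicate 1, so that pattern was close to given. Over all members, 16 lay above and 10 below every TG water array on replicate 1, against 27.6% and 31.5% of all genes. Replicate 1 held 4 members more than 0.5 from the median array, against 1 and 1 on replicates 2 and 3, a cut not counted over all genes. Without replicate 1 the median change in TG was -0.02 with 14 members above 0.

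**Figure D4:**
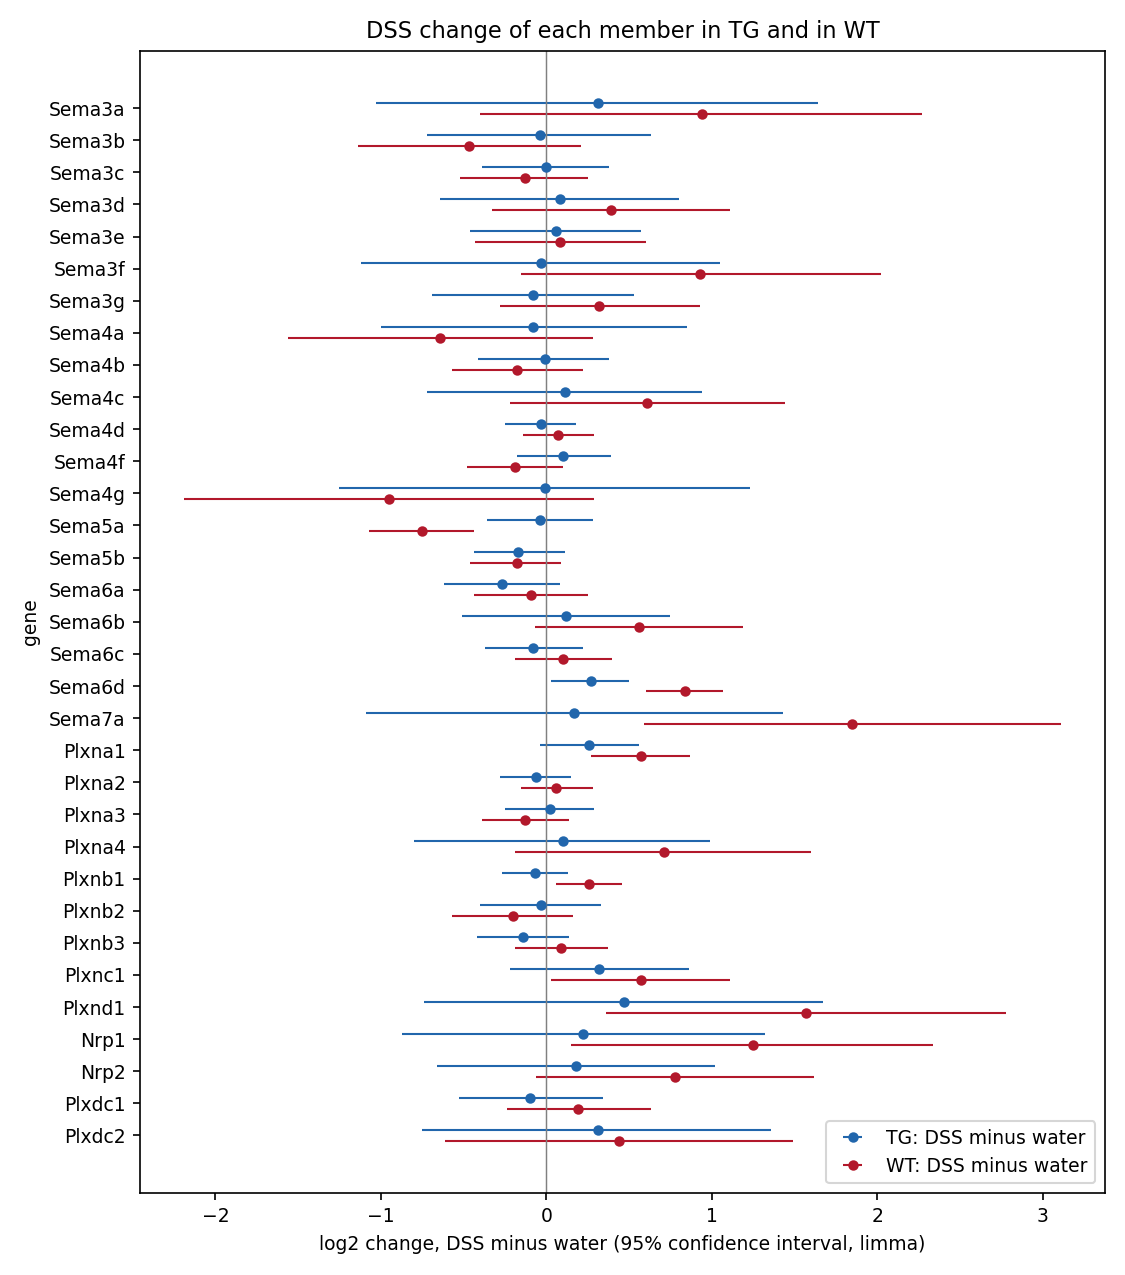
Log2 change, DSS minus water (x axis), with its 95% confidence interval from limma for each of the 33 genes (y axis) in TG (upper bar, blue) and in WT (lower bar, red). Sema6d is above 0 in both, at 0.27 in TG and 0.84 in WT. The 2 intervals of a gene have the same width because the fit shares 1 spread per gene over the 4 groups. They are wide for Sema7a, Plxnd1 and Nrp1, whose SDs of 1.42, 1.36 and 1.24 in WT DSS were their largest of any group.

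Under DSS, no member differed between TG and WT past the threshold, where 0.0401% of all genes did (8 of 19935 by limma). At an unadjusted p under 0.05, 1 member was higher and 7 were lower in TG, against 10.3% of all genes higher and 5.63% lower. The arrays did not overlap for 9 members. Sema5a, Sema4f and Sema5b were higher in TG DSS, and Sema6d, Plxna1, Plxna4, Plxnb1, Plxnb3 and Plxdc1 lower, where 14.1% of all genes lay above and 4.9% below. The WT DSS arrays are the same as in the comparison of WT DSS with WT water, so these values are not independent of those above. The median difference over the members was -0.27, and -0.11 without WT DSS replicate 2, against 0.04 over all genes.

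The smallest p belonged to Sema6d, at 0.12 ± 0.16 in TG DSS and 0.78 ± 0.15 in WT DSS (mean and SD, n = 3 each), a difference of -0.66 ± 0.11 (SE; limma adjusted p = 0.0782). That difference passed without WT DSS replicate 1, at -0.69 ± 0.12 (limma adjusted p = 0.0126), and without replicate 3, at -0.58 ± 0.11 (0.0495), but not without replicate 2, at -0.72 ± 0.11 (0.0637). Sema5a had -0.31, 0.05 and 0.07 in TG DSS, against -0.81, -0.46 and -0.75 in WT DSS, a difference of 0.61 ± 0.14 (SE; limma adjusted p = 0.124). The lowest TG array for Sema5a, replicate 1, was thus still above the highest WT array. Plxna1 differed by -0.45 ± 0.13 (SE; limma adjusted p = 0.174), and passed without WT DSS replicate 1, at -0.59 ± 0.12 (0.0228). Sema7a differed by -1.81 ± 0.57 (SE; limma adjusted p = 0.186) with overlap of TG DSS replicate 1 at 0.68 and WT DSS replicate 3 at 0.43, and passed without WT DSS replicate 3, at -2.51 ± 0.42 (0.0382). Plxnb1 had -0.08, -0.03 and -0.05 in TG DSS, against 0.16, 0.27 and 0.23 in WT DSS, a small difference of -0.27 ± 0.09 (SE; limma adjusted p = 0.197) between tight groups.

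**Figure D5:**
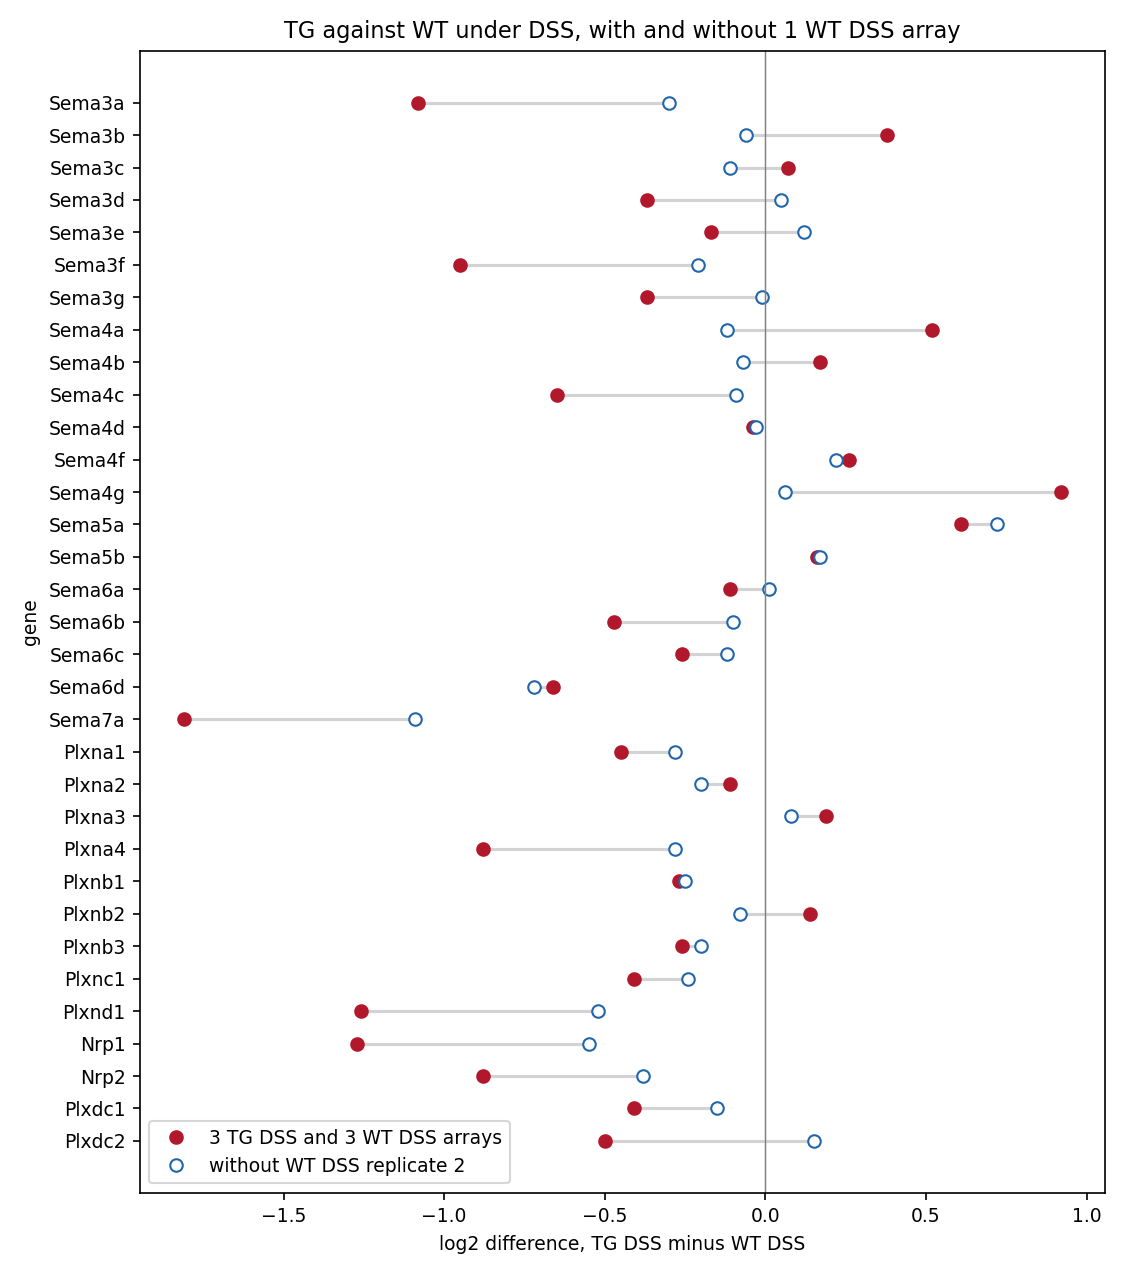
Log2 difference between TG DSS and WT DSS (x axis) for each of the 33 genes (y axis), with all arrays (filled) and without WT DSS replicate 2 (open). The points of Sema6d, Sema5a and Plxnb1 lie close together, 28 of 33 open points lie nearer to 0 than the filled ones, and 9 genes change sign. The same counts were not made over all genes.

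The difference between the DSS changes of the genotypes was tested as an interaction, the change in TG minus the change in WT. No member passed, and neither did any of the 19935 genes (0% by limma, with 1167 at an unadjusted p under 0.05). At that unadjusted level 1 member was above 0 and 2 were below, against 4.58% and 1.27% of all genes. Sema6d had -0.57 ± 0.15 and Sema5a 0.71 ± 0.20 (SE; limma adjusted p = 0.797 for both). Plxnb1 had -0.33 ± 0.13 (0.822), Sema7a -1.68 ± 0.80 (0.852) and Plxna1 -0.31 ± 0.19 (0.852; limma). The intervals of these differences were -0.90 to -0.24 for Sema6d, 0.27 to 1.16 for Sema5a and -3.47 to 0.10 for Sema7a, so the DSS changes of the genotypes are not shown to be alike.

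On water, no member passed between TG and WT (0% of all genes passed by limma). At an unadjusted p under 0.05 there were 61 of 19935 genes, or 0.306%, and 0 of 33 members. The spread in this test was shared with the DSS groups: Nrp1 had -0.24 ± 0.49 (SE), against SDs of 0.01 in TG water and 0.18 in WT water. With the compared groups alone, 423 genes and 0 members reached that unadjusted level by limma. With weights per array 5 members passed, all lower in TG, where 795 of all genes passed as higher and 1176 as lower. No member passed under any other setting. The genotypes are thus not shown to be alike on water. The members' differences lay between -0.45 and 0.14, with a median of -0.06, and 9 of 33 were above 0, against 54.7% of all genes. Sema5b differed by 0.14 ± 0.12, Plxna1 by -0.14 ± 0.13, Sema6d by -0.09 ± 0.11, Plxdc2 by -0.37 ± 0.47 and Sema3a by -0.45 ± 0.60 (SE; limma adjusted p = 1 for each). Plxna1 and Nrp1 were the members whose arrays did not overlap, and both were lower in TG, as were 3.05% of all genes. Nrp1 had -0.17, -0.14 and -0.16 in TG water, against 0.10, -0.10 and 0.26 in WT water, a separation of a few hundredths at its nearest arrays. Sema5b had 0.05, 0.00 and 0.43 in TG water, against 0.03, 0.19 and -0.15 in WT water. Plxdc2 had -0.23, -0.48 and 0.08 in TG water, against 0.09, -0.04 and 0.43 in WT water. For both genes the groups overlapped.

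Of 62 genes listed as co-receptors, VEGF ligands, sheddases and cytoplasmic partners of plexins, 59 were measured, and 0 passed by limma in any of the comparisons or the interaction. In WT DSS against WT water, 8 were higher and 5 lower at an unadjusted p under 0.05, against 5.7% and 9.55% of all genes, and 43 of 59 were above 0, against 40.6%, with a median change of 0.20. The smallest p was that of Arhgef11, a cytoplasmic partner of class B plexins, at -0.25, -0.47 and -0.34 in WT DSS, against -0.03, 0.09 and 0.09 in WT water (-0.41 ± 0.09, SE; limma adjusted p = 0.102). Farp1, a FERM domain protein of the plexin pathway, had -0.80, -0.17 and -0.39 in WT DSS, against 0.18, -0.01 and 0.18 in WT water (-0.57 ± 0.15, SE; 0.126; limma). Cfl1, the actin-severing cofilin, had 0.25, 0.38 and 0.17 in WT DSS, against -0.11, 0.00 and -0.19 in WT water (0.37 ± 0.09, SE; 0.127; limma). The WT groups did not overlap for any of these 3 genes, which were taken for their small p. Of the 59 genes, 9 lay above and 6 below WT water without overlap, against 5.45% and 10.7% of all genes. The 15 co-receptors and other receptors had a median change of 0.63 in WT, the 35 measured cytoplasmic partners one of 0.06, and in TG the medians were 0.16 and 0.01. Of the 15, 11 had changes above 0 in WT, and 4 lay above WT water without overlap and 0 below. The genes of this list were not refitted without WT DSS replicate 2, so how far these medians rest on that array is not known.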

How the data were processed

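The deposited table holds log2 values of 28815 probe sets by 12 arrays, 1 value a cell. RMA and Affymetrix Expression Console are the tools named for making these values, per the submitters' processing notes, without versions or a log base, and log2 was taken as the scale RMA returns. No probe set's median across arrays lay farther than 5e-07 from 0, so the deposited log2 values are centred per probe set, no brightness filter could be set, and dim genes cannot be told from bright ones. Probe sets were named through GEO's platform annotation, with symbols updated to RefSeq: 21780 had 1 symbol, 1605 several and 5430 none. Probe sets of a gene were averaged, giving 19935 genes, of which 998 had several. All 33 members matched RefSeq.

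limma 3.58.1 in R 4.3.3 (lmFit, eBayes) fitted 1 mean per group over the 12 arrays, leaving 8 residual degrees of freedom. The fit used 1 spread per gene for all groups, so an SE also holds scatter from groups outside the comparison. Tests were two-sided, with Benjamini-Hochberg adjustment over all 19935 genes and a threshold of 0.05 on the adjusted p. Precision is limited by having 3 arrays a group. Figures were drawn with matplotlib 3.10.9, and tables were made with pandas 2.3.3 and numpy 2.4.6 in Python 3.11.15. The fit was tested on simulated normal values with 1 spread per gene for all groups. In the data the median SD of the members was 0.50 in WT DSS, 0.13 in WT water, 0.16 in TG DSS and 0.13 in TG water. The simulation did not cover such a difference in spread. The members and the lists were chosen with earlier results of these data known. Values on every array were given for members that passed, for the 12 members with the smallest p in WT DSS against WT water, for the 5 with the smallest p in each other comparison, for both neuropilins and for the extremes of each class. Alternatives were a stricter threshold, a fold minimum of 1.5, a replicate block, array centring, other variance settings, array and group weights, each array left out, the compared groups alone and single probe sets. Of the members, 26 had at least 1 of 37 promoters in the RefSeq table.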

Additional observations from a re-analysis of the deposited data

How the results depend on the processing

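The count of members passing in WT DSS against WT water, 1 as reported, was 0 at an adjusted p under 0.01, 0 with a replicate block (6 residual degrees of freedom), 0 with trend and robust variance, 0 with weights per group, 0 with the compared groups alone, 5 with weights per array, and 0 to 4 with 1 array left out. The count between TG and WT was 5 on water and 3 under DSS with weights per array, against 0 for both as reported, and 0 to 2 under DSS with 1 array left out. Over all genes, the 34 that passed in WT were 0 at an adjusted p under 0.01, 0 with the replicate block, 0 with weights per group, 0 with the compared groups alone, 2 with trend and robust variance, 105 when each probe set was tested on its own, 754 with weights per array, and 0 to 919 with 1 array left out. The 8 between TG and WT under DSS were 0 at an adjusted p under 0.01, with the replicate block, with trend and robust variance, with weights per group and with the compared groups alone, 4 with arrays centred, 273 with weights per array, and 0 to 1166 with 1 array left out. With weights per array 1971 genes passed on water, 4 in TG DSS against TG water and 12 in the interaction, which had 0 to 239 with 1 array left out, against 0 for each as reported. Of 18 same-numbered pairs, 1 had deviations that correlated above 0.1 (range -0.48 to 0.38), and 1 of 12 arrays correlated best with its own number, so the replicate numbers were not taken to pair the samples. Sema6d in WT passed under 10 of 21 settings, with limma adjusted p from 0.00525 to 0.367. Of the changes of the 12 members with the smallest p in WT and of the 5 in each other comparison, 1 reversed under these settings: Sema5b between TG and WT on water was -0.01 with weights per array. Over all 33 members, leaving out WT DSS replicate 2 turned the sign of 9 changes in WT and of 9 differences between TG and WT under DSS. Sign changes over all genes were not counted. The cause of these shifts was not tested. Centred values leave the brightness of each probe set unknown.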
